A study of Mus musculus with 11 samples.

Results

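A set of 10 genes of macrophage and myeloid effector function were followed in mouse HSCs (hematopoietic stem cells, from which all blood lineages arise). They were Mpeg1, Itgam, Csf1r, Cd68, Fcgr1, Fcgr3, Fcgr4, Cybb, Ctss and Lyz2, 10 of the 22180 genes measured. The list is of named myeloid genes and was chosen by the strong response of Mpeg1 to polyI:C, so the values of polyI:C against PBS below are a description and carry no test. HSCs had been sorted by flow cytometry from mice given ATRA (all-trans retinoic acid, a hormone-like product of vitamin A) followed by polyI:C (the RApIC group, 3 arrays), polyI:C alone (pIC, 2 arrays), ATRA alone (ATRA, 3 arrays) or PBS (3 arrays). PolyI:C is a double-stranded RNA that imitates a viral infection and induces interferon. The sources used here give neither strain, age, doses, injection times nor the sorting gate, and they do not say whether replicates came from separate mice. The p-values therefore cover only the spread among these arrays, which can be of technical origin.

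Macrophages and other phagocytes take up particles, often marked by antibody, through integrins and Fc receptors. They kill and digest them with pore-forming proteins, reactive oxygen from the phagocyte oxidase, lysozyme and lysosomal proteases. HSCs do not perform these tasks, but some of the genes also respond to interferons in other cells, and low levels of myeloid transcripts are known in multipotent cells. The members fall into surface receptors and adhesion proteins (Itgam, Csf1r, Fcgr1, Fcgr3, Fcgr4), effectors of killing (Mpeg1, Cybb, Lyz2) and lysosomal proteins (Ctss, Cd68).

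Promoter sequences came from RefSeq on the mouse build GRCm38.p6 and were searched for 9 members, with Csf1r left out of the search. These sequences hold 300 bases, from 250 bases before to 50 bases after the transcription start. They are printed for Mpeg1, Ctss, Cybb, Fcgr4 and Fcgr1, the 5 members with the largest differences after polyI:C. Capitals mark 3 short motifs, each searched on both strands. ISRE, written GAAANNGAAA, is the core of the element bound by interferon-activated factors. GAS, written TTCNNNGAA, is the element bound by STAT dimers. The PU box, written GAGGAA, is the core bound by the myeloid factor PU.1. The windows are Mpeg1 on chr19:12460520-12460819 (plus strand), Ctss on chr3:95526536-95526835 (plus strand), Cybb on chrX:9469275-9469574 (minus strand), Fcgr4 on chr1:171018676-171018975 (plus strand) and Fcgr1 on chr3:96293920-96294219 (minus strand), each printed 5′ to 3′ along the gene.
Mpeg1: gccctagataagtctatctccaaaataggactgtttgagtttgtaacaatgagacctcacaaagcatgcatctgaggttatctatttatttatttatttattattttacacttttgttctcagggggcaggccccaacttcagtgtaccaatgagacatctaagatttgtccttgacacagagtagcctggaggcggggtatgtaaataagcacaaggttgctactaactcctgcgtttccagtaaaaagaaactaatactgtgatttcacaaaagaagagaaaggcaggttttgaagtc
Ctss: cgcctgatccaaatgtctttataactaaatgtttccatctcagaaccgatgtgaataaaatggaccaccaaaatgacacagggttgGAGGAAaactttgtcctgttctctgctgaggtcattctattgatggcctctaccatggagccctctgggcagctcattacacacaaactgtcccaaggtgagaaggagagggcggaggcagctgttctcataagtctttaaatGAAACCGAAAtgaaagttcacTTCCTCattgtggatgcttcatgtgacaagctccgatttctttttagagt
Cybb: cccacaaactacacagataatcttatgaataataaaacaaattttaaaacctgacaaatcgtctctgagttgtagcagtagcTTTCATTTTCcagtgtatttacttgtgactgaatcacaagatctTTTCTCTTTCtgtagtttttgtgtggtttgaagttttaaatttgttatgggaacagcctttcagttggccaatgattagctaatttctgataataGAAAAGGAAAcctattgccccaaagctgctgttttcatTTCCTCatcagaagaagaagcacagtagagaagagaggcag
Fcgr4: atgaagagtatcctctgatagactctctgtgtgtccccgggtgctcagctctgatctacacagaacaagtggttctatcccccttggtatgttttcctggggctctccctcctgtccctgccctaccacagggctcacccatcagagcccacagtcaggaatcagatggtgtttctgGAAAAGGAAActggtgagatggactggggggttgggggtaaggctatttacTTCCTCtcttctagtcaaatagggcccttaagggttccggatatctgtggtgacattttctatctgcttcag
Fcgr1: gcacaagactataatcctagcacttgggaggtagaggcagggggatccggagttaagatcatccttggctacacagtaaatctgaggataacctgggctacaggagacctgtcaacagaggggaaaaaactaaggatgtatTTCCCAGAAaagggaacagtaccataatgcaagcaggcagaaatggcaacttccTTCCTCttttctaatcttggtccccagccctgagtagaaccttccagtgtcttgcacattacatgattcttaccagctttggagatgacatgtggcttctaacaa

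The ISRE letters occurred in 3 of the 9 members searched, Ctss, Fcgr4 and Cybb, against 3.44% of all 32851 promoter windows. Ctss had GAAACCGAAA with its first base at -21 from the start, Fcgr4 had GAAAAGGAAA at -73, and Cybb had 3 matches at -168, -124 and -29. The GAS letters occurred in Fcgr1 alone of the 9, as TTCCCAGAA at -109, against 8.3% of all windows. The PU box occurred in 7 of the 9, all except Mpeg1 and Lyz2, against 28.3% of all windows. No match of 1 motif overlapped a match of another. The Mpeg1 window held none of the 3, which says only that these letters are not in these 300 bases.

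All values are deposited log2 intensities, so 1 unit is a doubling, and each of the 10 genes had 1 probe set. The number of arrays limits the precision of every value. Levels of different probes on an array do not give relative amounts of transcript. The HSC label could thus be checked only by how far its markers varied among arrays. Ranks by brightness and summed levels below describe probe signal only. The stem cell factor receptor Kit lay between 11.7 and 12.5 on the 11 arrays, and the HSC receptor Procr lay between 7.51 and 8.56. Both were lower on every array with polyI:C than on any array without it. The log2 median of 15 HSC markers, set against PBS, ran from -0.64 to -0.59 for pIC and from -0.63 to -0.14 for RApIC. For ATRA it ran from -0.02 to 0.07. These markers were thus not steady across the treatments. One array stood apart on the main axis of variation. RApIC replicate 2 lay at -4.53 on the first principal component (56.0% of the variance), against 35.8 and 23.3 for RApIC replicates 1 and 3, 35.0 and 37.8 for the pIC arrays, -24.5 to -22.4 for the ATRA arrays and -22.9 to -15.1 for the PBS arrays. Values of the 10 genes that rest on the RApIC group are therefore given with and without it. ATRA replicate 1 stood apart in several genes, most clearly in 3 granule genes of neutrophils and their precursors. Elane was 10.08 there, against 5.78 to 6.69 on the other 10 arrays, Mpo was 9.47, against 6.21 to 6.88, and Ctsg was 8.53, against 5.90 to 6.50. The calcium-binding protein S100a9 was 6.66, against 5.64 to 6.01 on the other 10 arrays. Within the ATRA group this array was also highest in the monocyte gene Ly6c2, at 7.70 against 6.32 and 5.93. The same held for Mpeg1, at 6.21 against 5.81 and 5.61. These are sorted cell populations, so a change in the number of cells of a type and a change in RNA per cell cannot be told apart.

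**Figure D1:**
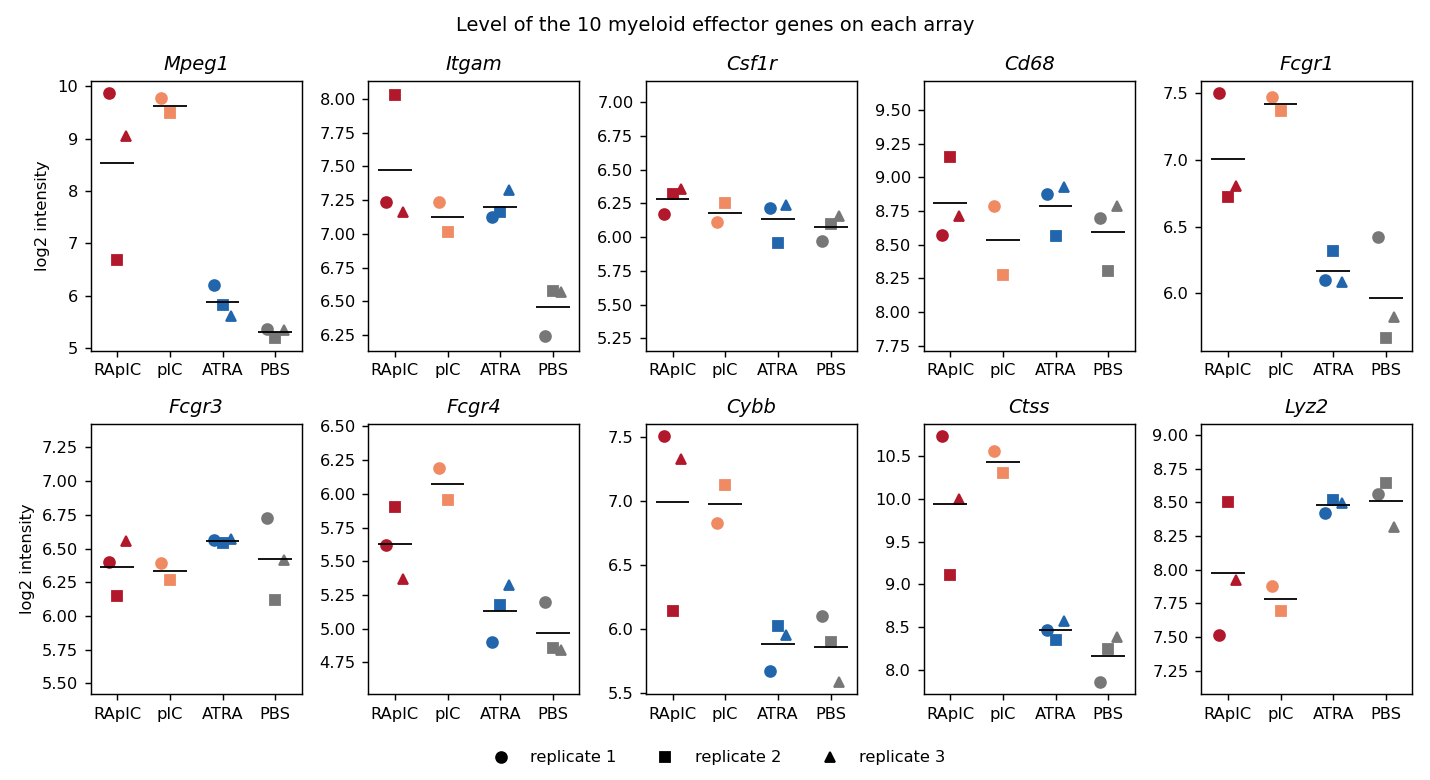
Log2 intensity of each of the 10 genes (y axis) on each array, by group (x axis: RApIC, pIC, ATRA, PBS), with the marker shape giving the replicate number and the black line the group mean. Mpeg1, Cybb and Ctss sit near the pIC arrays in RApIC replicates 1 and 3 and lower in RApIC replicate 2, where Mpeg1 was 6.67, while Csf1r stays between 5.96 and 6.36 on all 11 arrays.

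The response to polyI:C after ATRA, RApIC versus ATRA, uses no array of the pIC and PBS groups in its group means, though these enter the shared spread, and was tested by limma. Mpeg1, Ctss, Cybb and Fcgr1 rose, by 1.79-fold to 6.31-fold, and the other 6 genes did not pass at a Benjamini-Hochberg adjusted p under 0.05 over all genes. Thus 4 of 10 were called higher and 0 lower, where 3.5% of all genes were called higher and 3.71% lower. The median log2 difference of the 10 was 0.38, against -0.003 for all genes. In 5 of them, the 4 called and Fcgr4, every RApIC array lay above every ATRA array, as it did in 11.7% of all genes. The members were chosen with earlier results of these data known, so these shares are no independent test of the list. Without RApIC replicate 2 limma called the same 4 genes higher and also called Lyz2 lower, against 6.98% of all genes called higher and 7.51% lower. The calls rested on few arrays: limma called 0 of the 10 without any 1 of the ATRA arrays or without RApIC replicate 3. A fit of the RApIC and ATRA arrays alone, which uses no pIC or PBS array even for the spread, also called 0 of the 10, with an adjusted p of 0.119 for Mpeg1, 0.0948 for Ctss, 0.148 for Cybb and 0.0928 for Fcgr1. Without ATRA replicate 1, the array with the high granule genes, Mpeg1 differed by 2.82, Ctss by 1.49, Cybb by 1.01 and Fcgr1 by 0.81, at a limma adjusted p of 0.0647 to 0.15. The part of those granule-gene transcripts in the values of the 10 genes was not tested.

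Mpeg1 encodes perforin-2, a pore-forming protein of macrophages that inserts into the membranes of engulfed bacteria. It had 9.87, 6.67 and 9.06 on RApIC arrays 1, 2 and 3, 9.78 and 9.48 on the pIC arrays, 6.21, 5.81 and 5.61 on the ATRA arrays, and 5.36, 5.18 and 5.34 on the PBS arrays. RApIC replicates 1 and 3 were as high as the pIC arrays or close to them, RApIC replicate 2 lay just above the ATRA arrays, and no ATRA array overlapped the RApIC or the PBS group. The group means were 8.53 ± 1.66 in RApIC and 5.88 ± 0.30 in ATRA (SD, n = 3 each). The difference was 2.66 ± 0.60 (SE; 6.31-fold, limma adjusted p 0.0268), and 3.59 ± 0.23 (12.0-fold, limma adjusted p 1.45e-05) without RApIC replicate 2. It missed the threshold without any 1 of the ATRA arrays, or without RApIC replicate 1 or 3 (limma adjusted p up to 0.102), at differences of 1.99 or more. The level on that replicate stood at 22.2% of the way between the ATRA mean and the mean of RApIC replicates 1 and 3. For polyI:C alone against PBS, the values that chose the list, the difference was 4.34 ± 0.67, or 20.2-fold.

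Ctss encodes cathepsin S, a lysosomal protease that trims the invariant chain during antigen presentation. Its levels were 10.73, 9.11 and 9.997 on RApIC arrays 1, 2 and 3, 10.56 and 10.31 on the pIC arrays, 8.47, 8.35 and 8.57 on the ATRA arrays, and 7.86, 8.24 and 8.38 on the PBS arrays. Every array with polyI:C lay above every array without it, and RApIC replicate 2 was the lowest of those with it, at 34.0% of the way between the ATRA mean and the mean of RApIC replicates 1 and 3. The RApIC minus ATRA difference was 1.49 ± 0.31 (2.80-fold, limma adjusted p 0.0205), and 1.90 ± 0.21 (3.74-fold, limma adjusted p 0.000364) without RApIC replicate 2. It missed the threshold without any 1 of the ATRA arrays or without RApIC replicate 3 (limma adjusted p up to 0.0757). Its promoter holds 1 of the ISRE matches printed above.

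Cybb encodes gp91phox, the catalytic subunit of the phagocyte NADPH oxidase that makes superoxide. It had 7.51, 6.14 and 7.33 on RApIC arrays 1, 2 and 3, 6.83 and 7.12 on the pIC arrays, 5.67, 6.02 and 5.95 on the ATRA arrays, and 6.10, 5.90 and 5.59 on the PBS arrays. RApIC replicates 1 and 3 were the highest of the 11 arrays, while RApIC replicate 2 lay just above the highest ATRA and PBS arrays. The difference of RApIC from ATRA was 1.11 ± 0.30 (2.16-fold, limma adjusted p 0.0482), close to the threshold. It was 1.54 ± 0.16 (2.90-fold, limma adjusted p 0.00027) without RApIC replicate 2, which stood at 16.6% of the distance between the ATRA mean and the mean of the other RApIC arrays. In every other fit that left out 1 array Cybb missed the threshold (limma adjusted p up to 0.176), with a difference of 0.85 or more.

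The Fc receptors bind the constant part of antibodies, and the activating ones among the members pass the signal on through the ITAM adaptor Fcer1g. Fcgr1 encodes the high-affinity IgG receptor CD64. It had 7.50, 6.72 and 6.81 on RApIC arrays 1, 2 and 3, 7.48 and 7.37 on the pIC arrays, 6.10, 6.32 and 6.09 on the ATRA arrays, and 6.42, 5.66 and 5.82 on the PBS arrays. All RApIC arrays lay above all ATRA arrays, here with replicate 2 close to replicate 3, and the ATRA and PBS arrays overlapped. The difference of RApIC from ATRA was 0.84 ± 0.22 (1.79-fold, limma adjusted p 0.0452), and 0.99 ± 0.23 (1.98-fold, limma adjusted p 0.0192) without RApIC replicate 2. It missed the threshold without PBS replicate 3, either pIC array, any 1 of the ATRA arrays, or RApIC replicate 1 or 3 (limma adjusted p up to 0.142).

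Fcgr4, an activating receptor of intermediate affinity for IgG2, did not pass after ATRA. It had 5.62, 5.90 and 5.37 on RApIC arrays 1, 2 and 3, 6.19 and 5.95 on the pIC arrays, 4.90, 5.17 and 5.32 on the ATRA arrays, and 5.20, 4.85 and 4.84 on the PBS arrays. The groups stood in the order pIC, RApIC and then ATRA without overlap, ATRA overlapped PBS, and RApIC replicate 2 was the highest of its group. RApIC minus ATRA was 0.50 ± 0.16 (limma adjusted p 0.0894), and 0.36 ± 0.16 (limma adjusted p 0.176) without RApIC replicate 2. Fcgr4 was the only member in the dimmest 40% of genes.

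Fcgr3, the low-affinity activating receptor CD16, had 6.40, 6.15 and 6.55 on RApIC arrays 1, 2 and 3 and 6.39 and 6.27 on the pIC arrays. It had 6.56, 6.54 and 6.57 on the ATRA arrays and 6.73, 6.12 and 6.41 on the PBS arrays. All 4 groups overlapped their neighbours in order of level. The difference of RApIC from ATRA was -0.19 ± 0.14 (limma adjusted p 0.514), and -0.08 ± 0.15 without RApIC replicate 2. The inhibitory receptor Fcgr2b, which resembles Fcgr3 in its extracellular part, had a difference of 0.12 ± 0.18 (limma adjusted p 0.786).

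Itgam encodes CD11b, the α chain of complement receptor 3 on monocytes and granulocytes, and its pattern differed in order from that of Mpeg1. It had 7.24, 8.03 and 7.16 on RApIC arrays 1, 2 and 3, 7.24 and 7.02 on the pIC arrays, 7.12, 7.16 and 7.32 on the ATRA arrays, and 6.24, 6.57 and 6.57 on the PBS arrays. All arrays of the other groups lay above all PBS arrays, the RApIC, pIC and ATRA groups overlapped each other, and RApIC replicate 2 was the highest of the 11. RApIC minus ATRA was 0.27 ± 0.20 (limma adjusted p 0.501), and -0.004 ± 0.12 without RApIC replicate 2.

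Csf1r, the receptor for the macrophage growth factor CSF-1, had 6.17, 6.32 and 6.36 on RApIC arrays 1, 2 and 3, 6.11 and 6.25 on the pIC arrays, 6.22, 5.96 and 6.24 on the ATRA arrays, and 5.97, 6.10 and 6.15 on the PBS arrays. Cd68, a lysosomal glycoprotein used as a macrophage marker, had 8.57, 9.15 and 8.72 on the RApIC arrays, 8.79 and 8.28 on the pIC arrays, 8.87, 8.56 and 8.93 on the ATRA arrays, and 8.70, 8.31 and 8.79 on the PBS arrays. Neighbouring groups overlapped in both genes. The RApIC minus ATRA difference was 0.15 ± 0.10 for Csf1r (limma adjusted p 0.453) and 0.02 ± 0.19 for Cd68 (limma adjusted p 0.968). With RApIC replicate 2 left out it was 0.13 ± 0.11 for Csf1r and -0.15 ± 0.18 for Cd68. With all arrays, their 95% intervals on the log2 scale ran from -0.07 to 0.36 for Csf1r and from -0.39 to 0.44 for Cd68.

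Lyz2 encodes the lysozyme of macrophages and neutrophils, which cleaves bacterial cell walls. It had 7.51, 8.50 and 7.92 on RApIC arrays 1, 2 and 3, 7.88 and 7.69 on the pIC arrays, 8.42, 8.52 and 8.49 on the ATRA arrays, and 8.56, 8.65 and 8.32 on the PBS arrays. RApIC replicates 1 and 3 and both pIC arrays were the 4 lowest, and RApIC replicate 2 lay among the ATRA arrays. The difference of RApIC from ATRA was -0.50 ± 0.20 (limma adjusted p 0.168), and -0.76 ± 0.14 (0.59 times the ATRA level, limma adjusted p 0.00458) without RApIC replicate 2. Lyz1 is a close copy whose transcripts can share probes with Lyz2. It had -0.21 ± 0.17 (limma adjusted p 0.569), and which copy a probe set reports is uncertain.

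**Figure D2:**
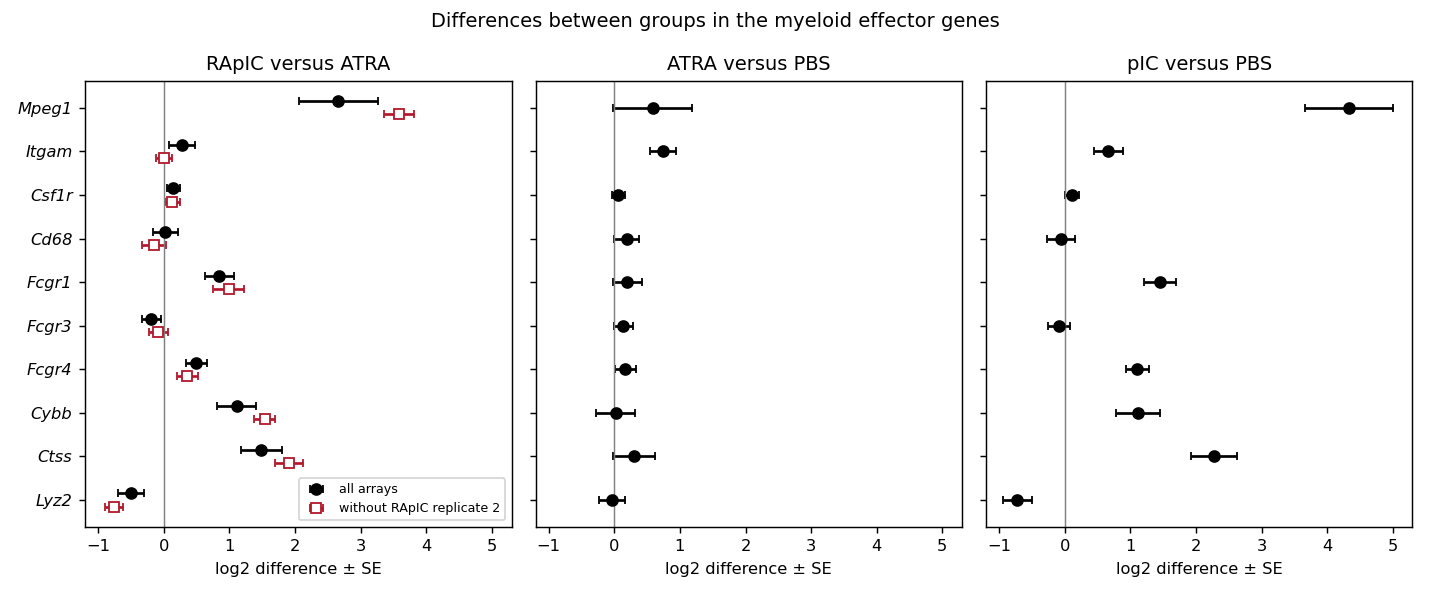
Log2 difference ± SE (x axis) of each of the 10 genes (y axis) for RApIC versus ATRA, ATRA versus PBS and pIC versus PBS, from 1 limma model of all arrays, with open squares for RApIC versus ATRA without RApIC replicate 2. Mpeg1 lies at 2.66 in RApIC versus ATRA, 0.58 in ATRA versus PBS and 4.34 in pIC versus PBS, and Lyz2 at -0.50, -0.03 and -0.72.

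RApIC replicate 2 did not stand at the same relative height in all responding genes. Fcgr1 on this array was at 56.1% of the distance between the ATRA mean and the mean of RApIC replicates 1 and 3, against 16.6% for Cybb and 22.2% for Mpeg1. Over 14 type I interferon targets the median was 55.1%, with a range of 39.8% to 84.1%. Whether this array differs by treatment, by the cells sorted or by handling was not tested.

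After polyI:C alone, compared with PBS, the same 4 genes and Fcgr4 had the largest differences. Mpeg1 stood at 4.34 ± 0.67, Ctss at 2.27 ± 0.35 (4.84-fold), Fcgr1 at 1.45 ± 0.25 (2.74-fold), Cybb at 1.12 ± 0.33 (2.17-fold) and Fcgr4 at 1.11 ± 0.18 (2.15-fold). Itgam stood at 0.67 ± 0.22 and Lyz2 at -0.72 ± 0.22 (0.61 times the PBS level), while Csf1r (0.11), Cd68 (-0.06) and Fcgr3 (-0.09) were near 0. By the call rule used elsewhere, 5 of 10 were higher and 0 lower, where 8.94% of all genes were called higher and 5.75% lower. Every pIC array lay above every PBS array in 6 members, against 23.4% of all genes, and below in Lyz2, against 19.6% of all genes. The list was chosen on this contrast, so nothing is read from these shares.

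ATRA alone, compared with PBS, asked whether retinoic acid itself moved these genes. Limma called 0 of 10 higher and 0 lower, where 0.00451% of all genes (1 of 22180) were called higher and 0% lower. At an unadjusted p under 0.05 it gave 1 member and 1508 genes, or 6.8% of all, and with array weights it called 28 genes over all and 0 members. That member was Itgam, with a difference of 0.74 ± 0.20 (1.67-fold, limma adjusted p 0.406) and all ATRA arrays above all PBS arrays. Without RApIC replicate 2, which enters only through the shared estimate of spread, the adjusted p of Itgam was 0.0463. Mpeg1 also had its ATRA arrays above its PBS arrays, with 0.58 ± 0.60 (limma adjusted p 0.925). This makes 2 of 10 without overlap, against 6.61% of all genes. The other 8 differences ran from -0.03 in Lyz2 to 0.30 in Ctss, and the median of the 10 was 0.18. This comparison shares the PBS arrays with pIC versus PBS.

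With polyI:C given in both groups, RApIC versus pIC compared mice with and without prior ATRA. Limma called 0 of the 9 members other than Mpeg1 and 0% of all genes in either direction. An unadjusted p under 0.05 was found in 2242 genes (10.1%) and in 1 of these members, Fcgr4. Array weights gave 112 calls over all genes. The pIC arrays also served to choose the list, so Mpeg1 is given without a p, at -1.09 ± 0.67, and at -0.16 without RApIC replicate 2. Fcgr4 had -0.44 ± 0.18 (limma adjusted p 0.437; -0.58 ± 0.17 without RApIC replicate 2), with all RApIC arrays below both pIC arrays, as in 17.4% of all genes. Ctss had -0.49 ± 0.35 (limma adjusted p 0.671), Fcgr1 -0.41 ± 0.25, Itgam 0.35 ± 0.22 and Cybb 0.02 ± 0.33. The values without RApIC replicate 2 were -0.07 ± 0.23 for Ctss, -0.27 ± 0.26 for Fcgr1, 0.07 ± 0.13 for Itgam and 0.44 ± 0.18 for Cybb (limma adjusted p 0.598). The values of Ctss and Cybb thus turned on 1 array. With all arrays the 95% interval of Cybb ran from -0.72 to 0.75 and that of Ctss from -1.26 to 0.29. Without that array limma again called 0 members, with 2, Fcgr4 and Cybb, at an unadjusted p under 0.05 among the 9 other than Mpeg1.

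The difference between both polyI:C responses, RApIC minus ATRA less pIC minus PBS, was tested as an interaction. Limma called 0 of the 9 members other than Mpeg1 and 0% of all genes, and array weights also gave 0 calls. An unadjusted p under 0.05 was found in 1390 genes (6.27%) and in 1 of these members, Fcgr4. Fcgr4 had -0.61 ± 0.24 (limma adjusted p 0.786), Fcgr1 -0.61 ± 0.33, Itgam -0.39 ± 0.30, Ctss -0.79 ± 0.47 and Cybb -0.005 ± 0.44. Once RApIC replicate 2 was left out, Fcgr4 had -0.75 ± 0.22, Fcgr1 -0.47 ± 0.33, Itgam -0.67 ± 0.17 (limma adjusted p 0.682), Ctss -0.37 ± 0.30 and Cybb 0.42 ± 0.23. Limma called 0 members there too, with 2, Itgam and Fcgr4, at an unadjusted p under 0.05 among the 9 other than Mpeg1. Mpeg1, given without a p, had -1.68 ± 0.90, and -0.75 ± 0.32 without RApIC replicate 2. The interaction contains the pIC minus PBS difference on which the list was chosen, so nothing is read from these counts and no median is given.

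The genes nearest to Mpeg1 in profile were found by the root mean square difference over the 11 arrays, each gene set to its PBS mean. They were Ifit1bl1 (0.43), Phf11d (0.46), Ly6c2 (0.48), Ifi209 (0.50) and Csf2rb2 (0.52). The nearest, Ifit1bl1, is of the Ifit family, from which Ifit1, Ifit2 and Ifit3 are among the type I interferon targets counted below. Ly6c2 marks inflammatory monocytes, and Csf2rb2 is the β chain of the mouse interleukin-3 receptor. Whether these neighbours share a function was not tested. For Ctss the nearest genes were Ddx60 (0.19) and Sdc3 (0.21), for Cybb Sp100 (0.21) and Tapbp (0.22), and for Fcgr1 Trim30b (0.17) and Tmem184b (0.17). All 11 arrays share the 4 treatments, so this likeness is a description.

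Partners of the members in the same processes were counted in lists by role, also chosen with earlier results of these data known. Among 10 measured genes of Fc receptor and ITAM signalling, 1 rose and 1 fell in RApIC versus ATRA, with a median of 0.07. The kinase Syk rose by 0.35 ± 0.07 (limma adjusted p 0.013), and Fcgrt, the neonatal Fc receptor that recycles IgG, fell by 1.08 ± 0.12 to 0.47 times the ATRA level (limma adjusted p 0.0014). Fcgrt had 7.71, 8.03 and 8.01 on the RApIC arrays and 8.94, 8.97 and 9.08 on the ATRA arrays, with a wide gap between them and replicate 2 in place with the others. The tyrosine kinase Btk had 0.22 ± 0.08 and the exchange factor Vav1 0.11 ± 0.07, and neither passed. Syk missed the threshold without ATRA replicate 2 or RApIC replicate 1 or 3 (limma adjusted p up to 0.057).

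Of 4 measured oxidase partners 1 rose. Ncf4, the p40phox subunit, rose by 0.45 ± 0.12 (limma adjusted p 0.0483), and passed in 1 of 11 fits that left out an array, the one without RApIC replicate 2. The membrane partner Cyba had 0.19 ± 0.11, Ncf1 had -0.07 ± 0.09 and the small GTPase Rac2 had -0.09 ± 0.08, and none of them passed. Of 6 integrins and adhesion partners 1 rose. It was Fermt3, kindlin-3, which activates integrins in blood cells, at 0.47 ± 0.08 (1.38-fold, limma adjusted p 0.0105, and 0.0518 without RApIC replicate 3). Itgal, the α chain of LFA-1, had 0.999 ± 0.33 (limma adjusted p 0.098, and 0.00445 without RApIC replicate 2). The medians were 0.06 for the oxidase partners and 0.05 for the adhesion partners.

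Of 12 lysosomal genes 0 rose and 2 fell in RApIC versus ATRA, with a median of 0.0009, and 3 had positive differences at an unadjusted p under 0.05. Ctsh, cathepsin H, had 6.92, 7.37 and 7.13 on the RApIC arrays, 6.95 and 6.98 on the pIC arrays, 8.62, 8.47 and 8.22 on the ATRA arrays, and 7.81, 8.07 and 7.96 on the PBS arrays. All arrays with polyI:C lay below all arrays without it, and the ATRA arrays were the highest. Ctsh fell by 1.29 ± 0.13 to 0.41 times the ATRA level (limma adjusted p 0.000921), and Ctsl, cathepsin L, fell by 0.47 ± 0.11 (limma adjusted p 0.0275). Grn, the progranulin gene, had 0.82 ± 0.24 and Lamp2, a lysosomal membrane protein, 0.29 ± 0.09, and both passed only without RApIC replicate 2 (limma adjusted p 6.24e-05 and 0.0116). Without that array 3 lysosomal genes rose and 2 fell. Ctsl missed the threshold without any 1 of the ATRA arrays or RApIC replicate 1 (limma adjusted p up to 0.106).

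**Figure D3:**
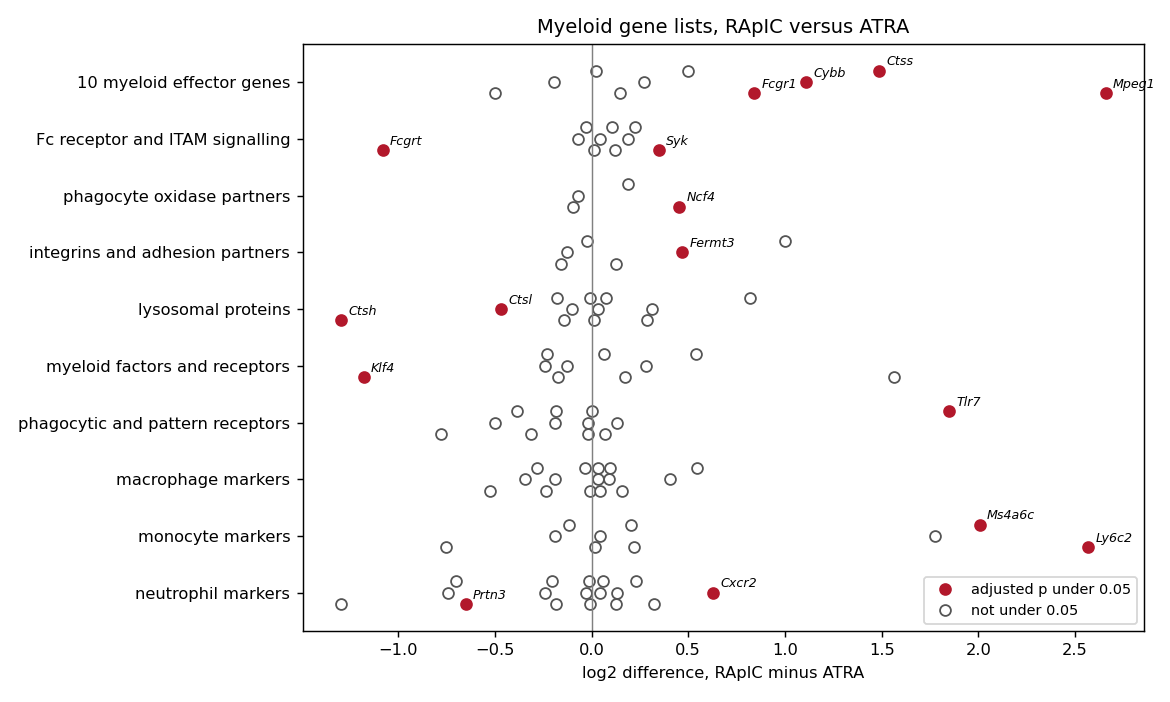
Log2 difference of RApIC minus ATRA (x axis) for each gene of 10 myeloid gene lists (y axis), with filled points for genes at a limma adjusted p under 0.05. Mpeg1 (2.66) and the monocyte gene Ly6c2 (2.57) lie farthest to the right, and Ctsh (-1.29) is the called gene farthest to the left.

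Of 10 measured myeloid transcription factors and growth factor receptors 0 rose and 1 fell, with a median of -0.03. Klf4, a factor of monocyte differentiation that also responds early to stimulation, had 6.73, 6.60 and 6.66 on the RApIC arrays, 7.05 and 6.74 on the pIC arrays, 7.98, 8.02 and 7.53 on the ATRA arrays, and 8.18, 8.38 and 7.99 on the PBS arrays. The arrays with polyI:C were again all below the others. Klf4 fell by 1.18 ± 0.14 to 0.44 times the ATRA level (limma adjusted p 0.0023). Csf2rb, the shared β chain of the GM-CSF, IL-3 and IL-5 receptors, had 1.57 ± 0.42 and missed the threshold (limma adjusted p 0.0508, and 0.000533 without RApIC replicate 2). Its close copy Csf2rb2 had 1.93 ± 0.62 (limma adjusted p 0.0886), and which of the 2 copies a probe set reports is uncertain. Il3ra, the IL-3 receptor α chain, had 0.54 ± 0.16 (limma adjusted p 0.0692), and the factor Cebpb had -0.23 ± 0.11. Without RApIC replicate 2, 3 genes of the list rose and 2 fell.

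Among 12 phagocytic and pattern receptors 1 rose and 0 fell, with a median of -0.10. Tlr7, the endosomal sensor of single-stranded RNA, had 7.81, 5.28 and 6.92 on the RApIC arrays, against 4.85, 4.89 and 4.73 on the ATRA arrays. As in Mpeg1, RApIC replicate 2 lay just above the ATRA arrays. Tlr7 rose by 1.85 ± 0.48 (3.60-fold, limma adjusted p 0.044), and passed in 1 of 11 fits that left out an array, the one without RApIC replicate 2. The β-glucan receptor Clec7a had -0.78 ± 0.25, the inhibitory receptor Sirpa -0.50 ± 0.18 and the scavenger receptor Cd36 -0.38 ± 0.14. None of them passed (limma adjusted p 0.0885 to 0.14). Clec7a differed by 1.27 for ATRA against PBS and by -0.32 for polyI:C alone against PBS. In the fit without RApIC replicate 2, 1 gene of the list rose and 2 fell.

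Markers of the cells that carry the 10 genes in marrow were set beside them. Of 15 macrophage markers 0 rose and 0 fell by limma in RApIC versus ATRA (1 and 1 without RApIC replicate 2, and likewise with array weights), with a median of 0.03. At an unadjusted p under 0.05 there was 1, Mertk. The summed level of the list on the log2 scale was 10.4 to 10.7 on the RApIC arrays, 10.7 to 10.8 on the pIC arrays, 10.3 to 10.5 on the ATRA arrays and 10.3 to 10.5 on the PBS arrays. Of its defining markers, Adgre1 had 0.03 ± 0.12, the scavenger receptor Cd163 0.03 ± 0.11 and the first complement component C1qa -0.24 ± 0.16, and none passed. Mertk, a receptor for apoptotic cells, had -0.53 ± 0.14 (limma adjusted p 0.051) and its relative Axl 0.54 ± 0.26 (limma adjusted p 0.25). RMA values have no true 0, so a marker cannot be shown as absent.

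Of 10 monocyte markers 2 rose and 0 fell (3 and 1 without RApIC replicate 2), with a median of 0.12. Ms4a6c, a membrane protein of monocytes, had 10.99, 9.03 and 10.46 on the RApIC arrays, against 8.36, 7.93 and 8.18 on the ATRA arrays, and all RApIC arrays were higher. It rose by 2.01 ± 0.39 (4.02-fold, limma adjusted p 0.0146, and up to 0.0664 without ATRA replicate 2 or RApIC replicate 3). Ly6c2 had 10.21, 7.36 and 10.08 on the RApIC arrays and 7.70, 6.32 and 5.93 on the ATRA arrays, so RApIC replicate 2 lay below the highest ATRA array. It rose by 2.57 ± 0.67 (5.93-fold, limma adjusted p 0.0444), and passed in 2 of 11 fits that left out an array, those without ATRA replicate 1 or RApIC replicate 2. Its close copy Ly6c1 had 1.59 ± 0.40, and the probe sets may not separate them. S100a4, a calcium-binding protein, had -0.75 ± 0.22 (limma adjusted p 0.0678, and 0.00905 without RApIC replicate 2). The matrix protein Fn1 had 1.77 ± 0.57 (limma adjusted p 0.0917, and 0.00468 without RApIC replicate 2). The remaining markers, Cd14, Ccr2, Cx3cr1, F13a1, Treml4 and Ace, did not pass with or without RApIC replicate 2. Cd14 had -0.19 ± 0.18. Ccr2 had 6.04, 4.97 and 5.51 on the RApIC arrays and 5.46, 5.19 and 5.24 on the ATRA arrays, which overlapped. The summed monocyte level was 10.6 to 12.2 on the RApIC arrays, 12.0 to 12.2 on the pIC arrays, 10.3 to 10.6 on the ATRA arrays and 10.3 to 10.7 on the PBS arrays. A sum is carried by its brightest genes, and the list median relative to PBS was -0.15 to 0.14 on the RApIC arrays, 0.005 and 0.03 on the pIC arrays, and -0.07 to -0.008 on the ATRA arrays. The part of monocyte transcripts in the rise of Mpeg1, Ctss, Cybb and Fcgr1 was not tested.

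Of 17 neutrophil markers 1 rose and 1 fell, with a median of -0.01. The summed level was 11.03 to 11.32 on the RApIC arrays, 10.97 to 10.99 on the pIC arrays, 11.26 to 12.17 on the ATRA arrays and 10.81 to 11.002 on the PBS arrays. The value of 12.17 was that of ATRA replicate 1, where Elane, Mpo and Ctsg were high. Their RApIC minus ATRA differences were -1.29 ± 0.75, -0.70 ± 0.62 and -0.74 ± 0.52, and none passed. The chemokine receptor Cxcr2 rose by 0.63 ± 0.11 (limma adjusted p 0.00878), and proteinase 3 (Prtn3) fell by 0.65 ± 0.14 (limma adjusted p 0.0245). Prtn3 missed the threshold without ATRA replicate 1 or 2 or RApIC replicate 1 or 3 (limma adjusted p up to 0.0895). For polyI:C alone against PBS, Cxcr2 and Prtn3 differed by 0.006 and 0.07, and for ATRA against PBS by -0.24 and 0.76. Without RApIC replicate 2 the list had 2 rises and 2 falls. Limma called 0 of 7 dendritic cell markers (median -0.14, 1 at an unadjusted p under 0.05) and 0 of 9 B cell markers (median 0.01, 0 at an unadjusted p under 0.05). In the dendritic list 2 fell without RApIC replicate 2.

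Lists from outside the myeloid lineage moved on the same arrays. Of 15 T and NK cell markers 1 rose (Nkg7, a granule protein, by 1.33 ± 0.18, limma adjusted p 0.00305) and 0 fell, with a median of 0.89, and 11 rose and 1 fell without RApIC replicate 2. The summed T and NK level was 10.9 to 13.5 on the RApIC arrays and 13.4 on both pIC arrays. It was 10.5 to 10.9 on the ATRA arrays and 10.4 to 10.9 on the PBS arrays. This sum follows its brightest genes. On the pIC arrays the brightest was the chemokine Ccl5, at 12.94 and 12.79, against 7.51 to 8.36 on the PBS arrays. Relative to the PBS mean, the list median was 1.10, 0.04 and 1.08 on RApIC arrays 1, 2 and 3 and 0.40 and 0.998 on the pIC arrays, so RApIC replicate 2 is low here as it is in Mpeg1 and Cybb. Of 14 type I interferon targets 13 rose and 0 fell, with a median of 2.09, and their list median was 2.52, 1.29 and 2.20 on the RApIC arrays and 2.35 and 2.37 on the pIC arrays. Of 15 HSC markers 6 fell and 0 rose (10 and 0 without RApIC replicate 2), among them Procr by 0.86 ± 0.09 (limma adjusted p 0.000921) and the exchange factor Fgd5 by 1.28 ± 0.16 (limma adjusted p 0.00241). Of 8 erythroid markers 2 rose, Gata1 and Klf1, and 5 rose and 1 fell without RApIC replicate 2. Klf1 passed in 1 of 11 fits with an array left out, and Gata1 missed the threshold without ATRA replicate 1 or 3 (limma adjusted p up to 0.0708). Whether any of these shifts has a part in the values of the 10 genes was not tested. For ATRA versus PBS limma called 0 of 161 genes in these lists together, and 14 had an unadjusted p under 0.05.

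**Figure D4:**
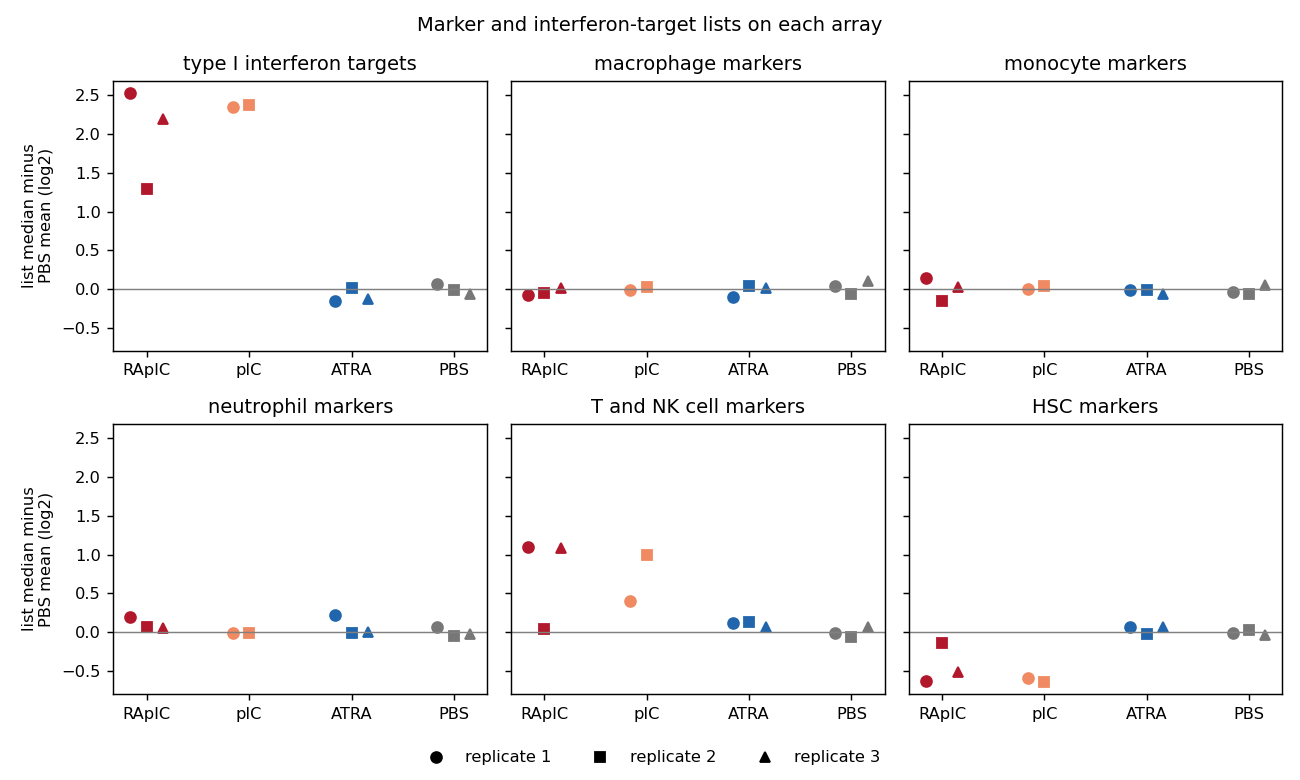
Median of each list of markers or interferon targets on each array, minus the PBS mean in log2 units (y axis), by group (x axis), with the marker shape giving the replicate number. The interferon targets lie at 2.52, 1.29 and 2.20 on RApIC arrays 1, 2 and 3 and 2.35 and 2.37 on the pIC arrays, and the macrophage markers between -0.10 and 0.10 on all 11 arrays.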

How the data were processed

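Total RNA of sorted HSCs was hybridised to 11 Affymetrix arrays, and the deposited values are log2 intensities made by the authors. RMA, the oligo package 1.36.1 and limma 3.28.20 are named, without role or order, per the submitters' processing notes. Of 41345 probe sets, 23521 had 1 gene in the platform annotation, 1814 had several and 16010 were not listed. The probe set with the highest mean was used for each gene, which gave 22180 genes. Quantile scaling within RMA removes shifts shared by all genes.

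Limma 3.58.1 in R 4.3.3 fitted 1 mean for each of the 4 groups over all arrays and genes, with 7 residual degrees of freedom and plain empirical Bayes. Genes were called at a two-sided Benjamini-Hochberg adjusted p under 0.05 over all genes. The model was also run on simulated data, with normal noise of the same SD on all arrays of a gene. That simulation held no outlying array such as RApIC replicate 2, so it does not cover the dependence of calls on single arrays. The text names the 10 members, up to 4 genes per list with the smallest adjusted p in RApIC versus ATRA, and the nearest profiles of called members (5 for Mpeg1, 2 for others). Adgre1, Cd163, Mpo, Ctsg, S100a9, Kit and the close copies were named in addition. So were Ifit1, Ifit2 and Ifit3 and the monocyte markers Cd14, Ccr2, Cx3cr1, F13a1, Treml4 and Ace. The members and lists were chosen with earlier results of these data known. Promoters came from RefSeq (GRCm38.p6). Figures were made in Python 3.11.15 with matplotlib 3.10.9.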

Additional observations from a re-analysis of the deposited data

How the results depend on the processing

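The number of the 10 genes called in RApIC versus ATRA was 4, and 0 in a limma fit of only the groups compared (305 genes over all, against 1599). With an array left out it ran from 0 to 5, over 476 to 3214 genes in all. It was 0 without any 1 of the ATRA arrays or without RApIC replicate 3, 1 (Ctss) without RApIC replicate 1, 2 (Mpeg1 and Ctss) without PBS replicate 3 or either pIC replicate, and 5 without RApIC replicate 2. The highest adjusted p with an array left out was 0.102 for Mpeg1, 0.0757 for Ctss, 0.142 for Fcgr1 and 0.176 for Cybb, and all 4 differences stayed positive. Array weights gave 5 of the 10 and 4588 genes in RApIC versus ATRA, 28 genes in ATRA versus PBS and 112 in RApIC versus pIC. Over all genes ATRA versus PBS gave 16 without the dimmest 40% of genes, 22 with a trend and robust prior and 1 to 26 with an array left out, among which members numbered 0 to 1. Leaving out an array gave 0 to 1 genes in RApIC versus pIC and in the interaction, and 664 to 4052 in pIC versus PBS. Same-numbered arrays deviated from their group means with correlations of -0.109 to 0.0976 over 15 pairs. The labels do not say what the replicate number stands for, and groups this small cannot settle whether arrays were paired. The replicate block gave 3 of the 10 genes in RApIC versus ATRA, without Cybb, and 4 genes in ATRA versus PBS. Of 867 values of single members under the alternatives, 794 counted as unchanged, 32 lost a call, 3 gained one, and 38 moved in other ways. Of these 38, 36 were a change of sign of an uncalled value. For tested values, unchanged meant the same direction and side of the threshold. For the values given without a test it meant a shift below the residual SD of the gene. Those were pIC versus PBS, and Mpeg1 in RApIC versus pIC and in the interaction. Of 324 list counts 237 stayed within 1.5 times the original. Cyclic loess scaling moved the median of all genes by at most 0.022. The cause of these dependences was not tested.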
